A study of Mus musculus with 2 samples.

Results

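The RNAs described here are the small structural RNAs with reads in mouse heart, 79 genes of 3503 that the annotation places in 4 classes: small nucleolar RNA (snoRNA), small nuclear RNA (snRNA), small Cajal body RNA (scaRNA) and miscellaneous RNA (misc_RNA). The annotation held 55536 genes in all. A gene was taken when all its transcripts were of these classes and its expected count, the authors' estimate of the reads it gave, was at least 10 in both libraries. The members comprised 39 snoRNAs, 22 snRNAs, 9 scaRNAs and 9 misc_RNAs, and each had 1 annotated transcript. The members were chosen by these expected counts, which are therefore given as a description, without a test.

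Total RNA was sequenced from heart of adult male 5xFAD/CAST mice aged 8 to 10 months, in 1 group of 2 libraries made from 300 ng of RNA each. 5xFAD is a transgenic line made as a model of brain amyloid, with transgenes under the neuronal Thy1 promoter; CAST is an inbred strain derived from wild mice. Whether these animals carried the transgenes is not stated in the labels. Each library has its own tissue sample in the labels but both name 1 donor, so their spread, printed as SD (n = 2), may be technical. No other genotype or treatment was present, so no contrast between conditions could be made. Library 1 held 39819960 expected counts and library 2 held 37060119, with 151568 and 133390 on spike-in RNAs. Heart muscle genes were abundant: Myh6, the alpha myosin heavy chain, averaged 6765 ± 206 TPM, a level scaled for transcript length and library total, and Tnni3, cardiac troponin I, averaged 3379 ± 20.5 TPM. In bulk tissue, fewer cells of a type and less RNA per cell cannot be told apart.

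Small structural RNAs act as parts of RNA-protein particles. The 7SL RNA (Rn7s genes) is the scaffold of the signal recognition particle, which brings ribosomes to the endoplasmic reticulum, and 7SK (Rn7sk) holds the elongation kinase P-TEFb in an inactive particle. The snRNAs U1 and U2 recognise the 5′ splice site and the branch point. Box C/D snoRNAs guide ribose methylation of other RNAs, box H/ACA snoRNAs guide pseudouridylation, U3 takes part in cutting the precursor of ribosomal RNA, and scaRNAs guide the same modifications on snRNAs. In mammals most snoRNAs are released from introns of host genes.

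Of the 4 genes that mark this set, Rn7sk and Rn7s1 were members, while Rmrp and Rpph1 were not, because the annotation types them outside these classes. Rpph1, the RNA of ribonuclease P, is typed ribozyme and had 14273 expected counts in library 1 and 16036 in library 2. Rmrp, the RNA of ribonuclease MRP, has a ribozyme and an overlapping lincRNA entry, which together had 9265 and 8910. Both were thus detected, at a mean of 2156 ± 270 TPM for Rpph1 and 1610 ± 30.5 TPM for the summed Rmrp entries, and are left out only by their type.

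The members were long for their classes, with lengths from 126 to 414 bases and a median of 164, against a median of 119 over all 3503 genes. The first quantification takes 100 bases from the length of an entry, and the 738 genes of at most 100 bases had 0 counts. Of the 1159 genes of 101 to 125 bases, 14 had any count and 0 were members. Among these were U6 (Rnu6, 107 bases) and U5 (Rnu5g, 116 bases), both at 0 in both libraries, so no level of these entries was measured. Of the 898 genes of 126 to 150 bases, 101 had a count and 30 were members. Over all lengths 2517 genes above 100 bases had 0 counts in both libraries. A further 169 genes had some counts without reaching the minimum, and 22 of them had at least 10 in 1 library only.

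Just inside the minimum were Snora21 with 18 counts in library 1 and 10 in library 2, Gm24727 with 14 and 10, Rnu12 with 12 and 24, Gm25989 with 12 and 12, and Snora44 with 14.4 and 13.7. Just outside were Gm22270 with 9 and 10, Gm23245 with 9 and 13, Snora23 with 9 and 22, Snora43 with 13 and 9, and Terc, the telomerase RNA, with 9 and 9. Counts on either side of the minimum thus differed by a few reads. Of the 79 members, 36 had at least 100 counts in both libraries and 5 had at least 1000.

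Most of the signal came from 3 misc_RNA genes. Members of that class held 12.9% of TPM in library 1 and 14.4% in library 2, a mean of 13.7% ± 1.07. The snRNA members held 0.404% ± 0.0231, the snoRNA members 0.288% ± 0.0145 and the scaRNA members 0.0629% ± 0.000284. By expected counts, which are not scaled for length, the shares were 2.33% ± 0.194 for misc_RNA, 0.0250% ± 0.00202 for snRNA, 0.0179% ± 0.000140 for snoRNA and 0.0119% ± 1.9e-05 for scaRNA. All 79 members held 14.4% ± 1.07 of TPM and 2.38% ± 0.197 of counts. Rn7s1, Rn7s2 and Rn7sk alone made up 94.7% ± 0.331 of the members' TPM, and the other 76 genes 5.27% ± 0.331.

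The 7SL genes Rn7s1 and Rn7s2 are annotated with the same 300 bases, so reads cannot tell them apart. Both lie on chromosome 12, on opposite strands, and neither lies in a host gene. Each of Rn7s1 and Rn7s2 was given 373999 counts in library 1 and 401756 in library 2, that is 56400 and 64395 TPM. Their sum was 747999 and 803513 counts. Relative to library totals, library 1 over library 2 was 0.867 (exact 95% interval 0.864 to 0.869), an interval that covers counting error only. The authors' posterior SD for either entry was 12228 counts in library 1 and 11976 in library 2, or 0.0330 and 0.0299 of its posterior mean, while the SD of Rn7sk was 4.13 and 4.77 counts. Rn7s6, 85.2% identical to Rn7s1, had 74.0 and 48.1 counts. Gm26461, 80.7% identical to Rn7s1, had 33.1 and 26.0 counts. The 7SL signal was therefore carried by the identical pair.

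The first 100 bases of Rn7sk (chr9:78175534-78175633) are shown because it was the most abundant member with a sequence of its own. The gene lies at chr9:78175303-78175633 on the minus strand, outside any host gene. Capitals mark GATC, the letters of the element that HEXIM proteins bind in the 5′ hairpin of 7SK; the search covered the RNA strand alone.
Rn7sk: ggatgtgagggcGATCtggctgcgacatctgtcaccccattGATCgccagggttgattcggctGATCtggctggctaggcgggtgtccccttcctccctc
GATC occurred 3 times in Rn7sk, and 64.2% of the 503 misc_RNA entries above 100 bases hold it. Rn7sk had 121073 counts in library 1 and 106999 in library 2, and its TPM were 15808 and 14849. Library 1 over library 2 was 1.05 (1.04 to 1.06) by counts. The 7SL genes thus had a lower share of library 1 and 7SK a slightly higher one.

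The other 4 misc_RNA members besides Rn7s6 and Gm26461 had 16.0 to 34.0 counts per library. Gm26035, Gm26315 and Gm24146 are 84.1%, 85.7% and 85.4% identical to Rn7sk, and their mean TPM of 2.88, 3.74 and 3.70 stand beside 15328 ± 678 for Rn7sk. Gm27533 lies in an exon of the long noncoding RNA Neat1 on the same strand. Its count was uncertain, with a posterior SD of 0.445 of the mean in library 1 and 0.312 in library 2.

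The snRNA members were mainly copies of U1 and U2. Rnu1a1 (chr11:87422867-87423030, plus strand, in an intron of Tex14) and Rnu2-10 (chr11:101658238-101658428, plus strand, in no host gene on that strand) are shown as the named copies. Capitals mark ACTTACCTG, with which U1 pairs to the 5′ splice site, and GTAGTA, with which U2 pairs to the branch point. For Gm23444 (chr11:83271498-83271688, plus strand) and Gm25939 (chr1:72255008-72255198, plus strand), capitals mark the bases that differ from Rnu2-10.
Rnu1a1: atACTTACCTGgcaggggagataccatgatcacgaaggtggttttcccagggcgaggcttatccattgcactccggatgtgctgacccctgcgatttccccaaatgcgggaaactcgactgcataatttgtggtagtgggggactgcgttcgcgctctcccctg
Rnu2-10: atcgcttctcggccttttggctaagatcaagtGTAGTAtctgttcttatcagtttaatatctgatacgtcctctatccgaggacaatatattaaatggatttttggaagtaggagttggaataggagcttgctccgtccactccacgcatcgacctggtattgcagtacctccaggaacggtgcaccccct
Gm23444: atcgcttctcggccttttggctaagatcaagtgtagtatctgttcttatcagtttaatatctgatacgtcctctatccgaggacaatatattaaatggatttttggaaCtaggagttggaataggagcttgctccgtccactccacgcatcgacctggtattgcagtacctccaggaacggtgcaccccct
Gm25939: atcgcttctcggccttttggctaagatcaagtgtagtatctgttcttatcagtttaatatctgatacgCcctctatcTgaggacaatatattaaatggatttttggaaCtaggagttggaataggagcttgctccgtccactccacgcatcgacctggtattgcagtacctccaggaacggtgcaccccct
Rnu1a1 shares its sequence with 6 other members, and each of these 7 was given 342 counts in library 1 and 310 in library 2. Rnu2-10 shares its sequence with 3 other members, each at 813 and 892 counts. Gm23444 is identical to Gm23472, and each had 977 and 1163 counts. Posterior means within such sets ranged widely, from 475 to 1193 counts in library 1 for Gm23444 and Gm23472, so how reads were divided among identical copies carries no information on the single gene.

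Summed over all entries that are at least 95% identical along a chain of copies, the values were firmer. The U2 group had 13 entries, 8 of them members, and 5564 counts in library 1 and 6276 in library 2. Its ratio of library 1 over library 2 was 0.825 (0.796 to 0.856), and its mean level was 2027 ± 259 TPM. The U1 group had 23 entries, 10 of them members, with 3068 and 2868 counts, a ratio of 0.996 (0.946 to 1.05) and 1441 ± 6.54 TPM. U1 thus had the same share of both libraries within counting error, while U2 had a lower share of library 1. Some sequence variants got a count with little uncertainty and others did not. Gm25939, with 3 differing bases from Rnu2-10, had 311 and 321 counts with a posterior SD of 0.005 of the mean in both libraries. Gm22513, which differs from Rnu1a1 at 1 base, had 345 and 338, with a posterior SD of 0.003 of the mean in both libraries. Gm24305, also 1 base from Rnu1a1, had a posterior SD of 0.445 and 0.320 of the mean, and Gm23238, 4 bases from it, 0.219 and 0.228.

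Among the other snRNA members, Gm24265 and Gm24407 differ at 2 of 141 bases and had 473 and 296 counts in library 1, and 435 and 280 in library 2. Rnu12, the U12 RNA of the minor spliceosome, had 12 counts in library 1 and 24 in library 2. Rnu11, the U11 RNA of the same spliceosome, had 4 and 7 and was no member. U12 and U11 were thus near the limit of counting. ATTTNTG, a loose form of the site that Sm proteins bind, searched on the RNA strand at any position, occurred in 21 of the 22 snRNA members and in 20.6% of the 1167 snRNA entries above 100 bases. ACTTACCTG in the first 20 bases occurred in 10 members and 4.71% of entries, and GTAGTA in the first 60 bases in 8 members and 2.83%. The 10 members with ACTTACCTG were those of the U1 group and the 8 with GTAGTA those of the U2 group. The 22 members form 5 groups of copies, so they are not separate cases. Of the 1167 entries, 877 are of 101 to 125 bases, and 0 of those were members, so the shares of entries are over mostly shorter genes.

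**Figure D1:**
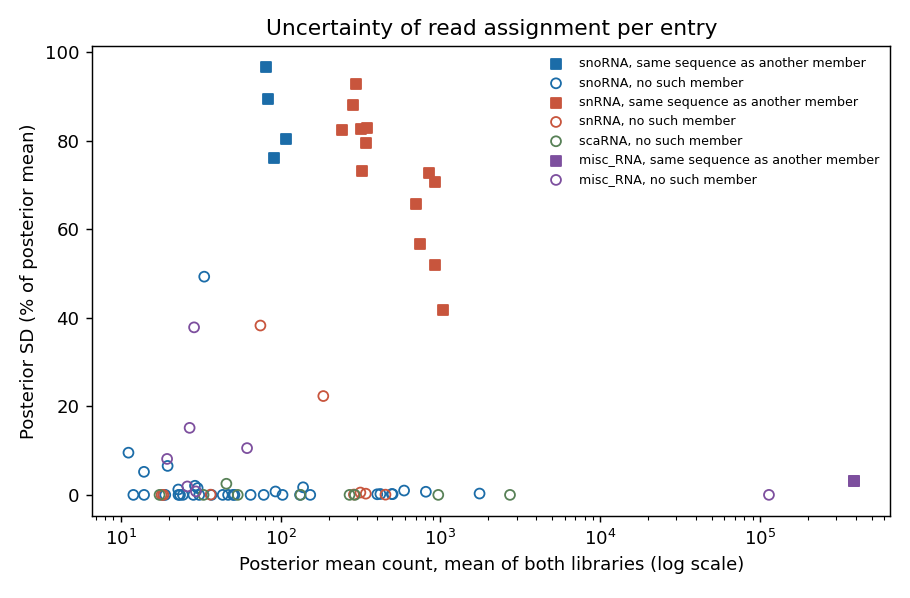
Posterior SD of the count, as a percentage of the posterior mean, against the posterior mean count (log scale) for the 79 members, both averaged over the 2 libraries. Filled squares share their sequence with another member and open circles do not; the 4 Rnu3b genes and 13 snRNAs with identical copies lie high, Rnu3a, Gm24305 and Gm27533 also stand above most open circles, and the identical pair Rn7s1 and Rn7s2 lies at the lower right.

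Over the set, 38 of 79 members had an annotated copy at 95% identity and 19 were identical to another member. A posterior SD above 10% of the mean in both libraries was found for 22 members, against 3.07% of the 14929 genes with at least 10 counts in both libraries. These were 15 snRNAs, 5 snoRNAs and 2 misc_RNAs. Of the 22 members, 20 had copies and 17 were identical to another. In the plot of posterior SD against count, the identical copies of U1 and U2 lie high although their counts are above the members' median.

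The snoRNA members spanned 5.92 to 531 TPM. Gm26447, in an exon of the translation factor gene Eif4a2, had 594 TPM in library 1 and 468 in library 2, with 571 and 424 counts. Scarna10, typed snoRNA despite its name and overlapping an exon of Ncapd2, had most counts, 1781 and 1752, but 239 and 250 TPM. One count was worth 0.138 to 1.19 TPM among snoRNA members, depending on length, so the order by TPM and by counts differed. Of the first 10 by either measure, 7 were shared. Other high members were Gm22988 at 298 ± 24.2 TPM, Snord15b at 277 ± 60.8, Snora73b at 240 ± 23.5, Snora73a at 175 ± 13.1 and Snora74a at 163 ± 2.29.

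Snora73a and Snora73b, known as E1 or U17 RNA and needed for ribosomal RNA processing, lie in Snhg3 on the minus strand of chromosome 4, at chr4:132352775-132352979 and chr4:132352322-132352526. They are shown as a pair of H/ACA snoRNAs whose reads could be told apart. In Snora73b capitals mark ACA in the last 10 bases, and in Snora73a the bases that differ from Snora73b or are not in it. Snord17 (chr2:144265979-144266216, minus strand, in an intron of Snx5) is shown as a C/D snoRNA, with TGATGA in its first 20 bases and CTGA in its last 20 in capitals.
Snora73b: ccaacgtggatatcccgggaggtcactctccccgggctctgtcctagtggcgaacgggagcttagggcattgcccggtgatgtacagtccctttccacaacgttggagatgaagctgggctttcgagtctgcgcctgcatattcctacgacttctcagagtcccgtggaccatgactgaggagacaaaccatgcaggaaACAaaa
Snora73a: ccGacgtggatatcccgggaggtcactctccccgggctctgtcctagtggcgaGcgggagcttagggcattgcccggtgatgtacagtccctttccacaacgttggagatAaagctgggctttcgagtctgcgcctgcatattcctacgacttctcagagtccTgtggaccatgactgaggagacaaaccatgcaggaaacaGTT
Snord17: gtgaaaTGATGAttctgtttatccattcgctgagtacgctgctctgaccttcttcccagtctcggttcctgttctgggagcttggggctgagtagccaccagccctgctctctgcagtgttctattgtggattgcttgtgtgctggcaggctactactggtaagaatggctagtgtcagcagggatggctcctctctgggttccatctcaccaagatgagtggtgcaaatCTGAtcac
Snora73b had 894 counts in library 1 and 732 in library 2, and Snora73a had 643 and 544. The posterior SD was at most 0.00991 of the mean for either gene in either library. Which reads covered the 7 capitals was not tested. Snord17 had 154 and 153 counts.

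ACA in the last 10 bases occurred in 24 of 39 snoRNA members and in 63.2% of the 1048 snoRNA entries above 100 bases, a like share. The pair TGATGA and CTGA occurred in 7 members, namely Snord17, Snord15a, Snord15b, Scarna10, Gm22486, Gm25835 and Gm23547, and in 1.34% of entries. Most box C/D snoRNAs are shorter than the entries that can be counted here. All motifs were searched on the RNA strand, and 9 members held neither pattern. Among these were Rnu3a, Rnu3b1 to Rnu3b4, Snord22 and Snora44. The patterns are strict and bound to the ends, so they do not count the members of either type.

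Most snoRNA members lay in another gene on the same strand: 38 of 39, of which 14 overlapped an annotated exon of the gene taken as host and 24 lay in its intron. Snora74a, placed in an intron of Gm28285, also overlaps an exon of another gene, AC121821.1. Among scaRNAs this held for 7 of 9, among misc_RNAs for 3 of 9 and among snRNAs for 5 of 22. Such a gene is called the host by position alone, for the Rnu3b genes as for the others. Whether a member is released from its host was not tested. Of the 38 snoRNAs, 24 had a higher TPM than their host, with a median member over host of 1.92. These include the 4 Rnu3b genes, which share 1 sequence, and members with few counts. The rule asks for at least 10 counts, and 1 count was worth up to 1.19 TPM among snoRNA members. A short member therefore lay above a host of low TPM through the rule itself, so the 24 and the median are a description. Gm25989, with 12 counts in each library, had 11.3 TPM against 3.9 for its host Qtrt2. In the second quantification, described below, the highest snoRNA Gm26447 had 0 TPM while its host Eif4a2 had 181. In the first quantification the extremes of member over host were far apart. Gm24119 averaged 10.8 TPM inside Slc25a3, a mitochondrial phosphate carrier at 830 TPM, while the 4 Rnu3b genes averaged 33.1 TPM each inside Tex14 at 0.04 TPM. Reads of a host intron or exon on the same strand can count for the member, and their part in these values was not tested.

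Members of 1 host differed from each other. Snord15b and Snord15a lie in Rps3, a ribosomal protein gene, and had 320 and 45.9 TPM in library 1, and 234 and 38.1 TPM in library 2. The TPM ratio was 6.98 in library 1 and 6.15 in library 2, and the ratio of counts was 6.55 (exact 95% interval 5.11 to 8.50) and 5.77 (4.35 to 7.79). Gm22988 and Gm25835 lie in Eif4a1 and are both 144 bases long. Their counts were 410 and 20 in library 1 and 433 and 26 in library 2, ratios of 20.5 (13.1 to 33.9) and 16.7 (11.2 to 25.8). In both hosts the higher member overlaps an annotated exon and the lower one lies in an intron. The pair in Snhg3 went the other way, the higher member Snora73b lying in an intron and the lower Snora73a overlapping an exon. That pair differed less, Snora73b over Snora73a being 1.39 (1.25 to 1.54) and 1.35 (1.20 to 1.51) by counts. In Pabpc4, Gm25788 over Gm22154 was 1.65 (1.14 to 2.41) and 1.70 (1.16 to 2.50).

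**Figure D2:**
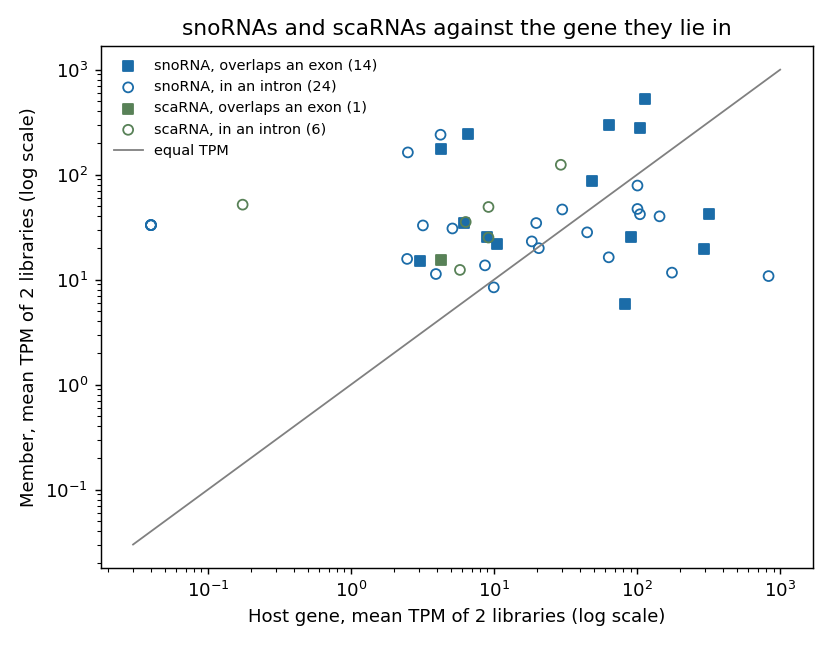
Mean TPM of each snoRNA or scaRNA member against that of the gene it lies in (both axes log scale, mean of 2 libraries, n = 45 pairs). Filled squares overlap an exon of the host and open circles lie in an intron; the line marks equal TPM, and members reach 531 TPM over hosts from 0.04 to 830 TPM with no common ratio. The 4 Rnu3b genes fall on 1 point at the left.

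Tex14, a germ cell gene with a mean of 0.04 TPM in this heart, held 6 members in its introns, Rnu1a1, its identical copy Gm22068 and the 4 U3 genes Rnu3b1 to Rnu3b4. The plot of members against hosts shows the 4 U3 genes as 1 point at its left edge, far above the line of equal TPM.

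No scaRNA member had a near-identical copy, and 8 of 9 had a posterior SD of 0 in both libraries. Scarna2, the longest member at 414 bases, had 2877 counts in library 1 and 2585 in library 2, and 270 ± 8.79 TPM. It lies in no host gene. Gm22009, in an intron of Kpna4, had 1017 and 926 counts and 124 ± 2.88 TPM. Scarna13, in Snhg10, had 312 and 272 counts. Scarna6 and Gm25395 lie in the autophagy gene Atg16l1 and behaved differently, with 133 and 134 counts for Scarna6 but 215 and 326 for Gm25395. For Gm25395 library 1 over library 2 was 0.614 (0.514 to 0.732), and for Scarna6 it was 0.924 (0.721 to 1.18). The lowest scaRNA member was Gm22442, with 17 and 18 counts.

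The U3 genes show how annotation enters the values. The members Rnu3b1 to Rnu3b4 share 1 sequence of 216 bases; Rnu3b1 (chr11:87443237-87443452, plus strand) is printed with Rnu3a (chr10:40258467-40258679, plus strand), capitals marking bases that differ from the other or are not in it.
Rnu3b1: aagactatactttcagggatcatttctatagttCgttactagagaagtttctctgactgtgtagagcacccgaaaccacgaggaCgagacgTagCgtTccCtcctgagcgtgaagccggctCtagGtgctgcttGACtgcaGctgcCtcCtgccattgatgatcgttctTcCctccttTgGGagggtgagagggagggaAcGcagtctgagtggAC
Rnu3a: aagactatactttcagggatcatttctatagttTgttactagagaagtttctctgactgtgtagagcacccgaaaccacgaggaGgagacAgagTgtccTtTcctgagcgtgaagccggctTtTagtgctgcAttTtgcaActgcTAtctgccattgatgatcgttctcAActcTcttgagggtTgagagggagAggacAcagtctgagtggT
Each Rnu3b gene was given 79.4 counts in library 1 and 165 in library 2, a ratio of 0.446 (0.336 to 0.586). Each also has a separate entry of 215 bases under the same symbol, which had 66.6 counts in library 1 and 0 in library 2. Both entries together came to 146 counts in library 1 and 165 in library 2 per gene. Over all 8 entries the sums were 584 and 659, a ratio of 0.825 (0.737 to 0.924). The posterior means of the 216-base entries, another estimate in the authors' tables, were 76.0 in library 1 and 90.1 in library 2 for Rnu3b1, and those of the 215-base entry were 78.1 and 53.2. The 2-fold difference of the single entries was thus a difference in how reads were split, and was not present in their sum. Rnu3a had 61 and 56 counts, a ratio of 1.01 (0.694 to 1.48).

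**Figure D3:**
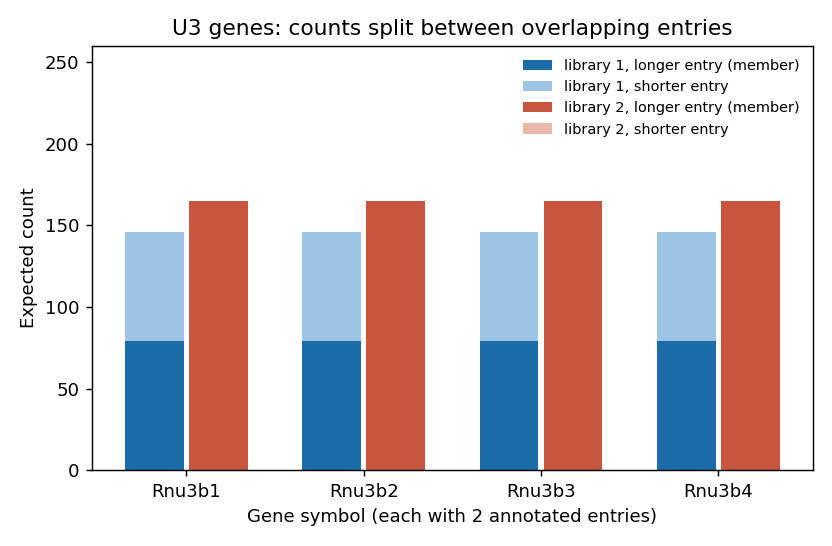
Expected counts of the Rnu3b genes in library 1 (left bar of each pair) and library 2 (right bar), stacked over the entry of 216 bases, which is a member, and the entry of 215 bases. The dark parts differ 2-fold between libraries while the full bars reach 146 and 165 counts.

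Between libraries the share of the total was close for the median member. Together the members held 2.24% of counts in library 1 and 2.52% in library 2. The median log2 of library 1 over library 2 was 0.02 over the members with an SD of 0.45, against a median of -0.01 and an SD of 0.30 over all 14929 genes with at least 10 counts in both libraries. By class the medians were 0.04 for snoRNA, -0.05 for snRNA, 0.03 for scaRNA and -0.21 for misc_RNA. Of the 79 members, 40 were higher in library 1 and 39 in library 2. Past 2-fold were 5 members, the 4 Rnu3b genes and Rnu12, against 1.45% of all those genes. All 5 were higher in library 2, where the background is 0.831%, and 0 were higher in library 1, where it is 0.623%. The members' median count of 122 was below the 332 of all genes. With copies summed, 54 groups remained and only Rnu12 was past 2-fold, at 0.465 (0.212 to 0.968).

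**Figure D4:**
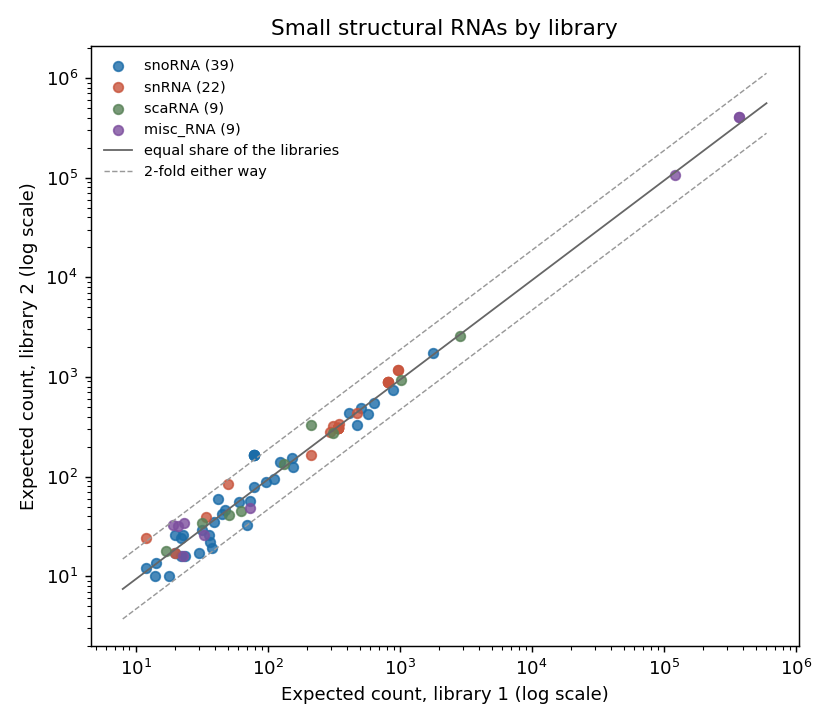
Expected counts of the 79 members in library 1 (horizontal) and library 2 (vertical), both on log scales, coloured by class. The solid line marks equal shares of the library totals and the dashed lines a 2-fold difference; the 4 Rnu3b genes, which share 1 point, and Rnu12 lie beyond the upper dashed line.

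The exact interval of the count ratio left out 1 for 22 members, against 20.4% of all genes. Higher in library 1 were 6 members, where the background is 9.22%, and higher in library 2 were 16, where it is 11.2%. Over the 54 groups of copies the interval left out 1 for 12, of which 6 were higher in library 1 and 6 in library 2. The authors' own credibility intervals of TPM lay apart for 7 members, against 4.95% of all genes. These were Rn7s1, Rn7s2, Rn7sk, Gm25395, Gm26447, Snord15b and Gm26397. Gm26397, a snoRNA in an intron of Tomm20, had 70 counts in library 1 and 33 in library 2, a ratio of 1.97 (1.29 to 3.08). Snord15b had 478 and 329, a ratio of 1.35 (1.17 to 1.56).

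The second quantification, from another estimator, gave many members no reads. By TPM, 68 of 79 members differed past 2-fold between the quantifications, against 2.16% of all genes, with 1 added to both values. In 66 the first was higher, where the background is 1.65%, and in 2, Gm23547 and Gm26035, the second was higher, where it is 0.516%. By counts 73 members were past 2-fold, against 3.15%, with 71 higher in the first (background 2.14%) and 2 in the second (1.01%). Since the members had to have counts in the first quantification, these counts are a description.

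The difference largely followed length, though some long members differed too. For entries above 1000 bases the second quantification took a median of 220 bases from the length in library 1 and 234 in library 2. At or below those lengths lay 62 members, and 0 of them had 10 or more counts there in either library. Together these 62 had 14480 counts in library 1 and 14504 in library 2 in the first quantification, and 5.33 and 6.55 in the second. Of the 17 longer members, 14 in library 1 and 12 in library 2 had at least 10. Other genes with 1 transcript showed the same step: of those at or below the length, 2 of 21 in library 1 and 2 of 25 in library 2 had at least 10 counts, against 94.3% and 93.6% of the longer ones.

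All 22 snRNA members fell below the step, so U1 and U2 were absent from the second quantification, with 4 and 0 counts for the U1 group and 3 and 2 for the U2 group. Snord17, at 238 bases, lay at the step: it had 154 counts in library 1 and 153 in library 2 in the first quantification but 102 and 2 in the second. Among long members the quantifications were closer, with 276 and 264 TPM for Scarna2 in the first and 253 and 214 in the second. Rn7sk had 15808 and 14849 TPM in the first and 20980 and 18520 in the second. Gm26035 had more counts in the second, with 22.8 and 16.1 in the first and 84.3 and 58.1 in the second. So did Gm23547 in Phb2, with 157 and 124 against 455 and 351. The plot of the ratio by length shows both below 0.

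**Figure D5:**
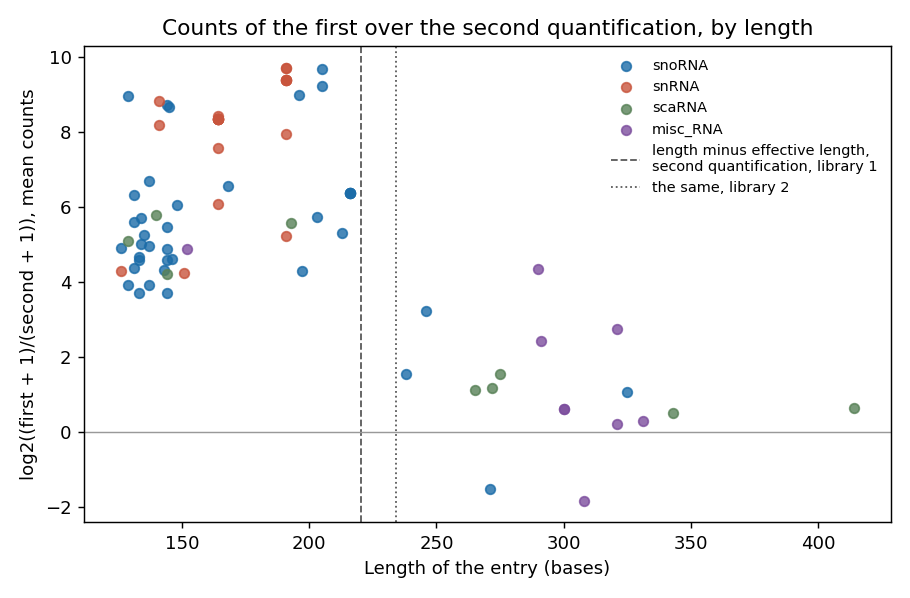
log2 of the first over the second quantification, mean counts with 1 added, against entry length in bases for the 79 members, coloured by class. Vertical lines mark the median of the bases that the second quantification took from entries above 1000 bases, 220 in library 1 and 234 in library 2. Members left of both lines are all above 3, and the others spread from -1.82 (Gm26035) to 4.35 (Gm26461).

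Messenger RNAs of the proteins that bind these RNAs were mostly detected. Of protein-coding genes in all, 48.9% of 22028 had at least 1 TPM in both libraries. Among 7SK particle genes 6 of 7 did, led by Mepce, the 7SK capping enzyme, at 9.08 ± 0.184 TPM, Ccnt1, a cyclin of P-TEFb, at 8.86 ± 0.0778, and its kinase Cdk9 at 8.17 ± 0.163. Hexim1 averaged 5.33 ± 0.290 and Hexim2 0.995 ± 0.488 TPM. All 10 genes of the signal recognition particle and its receptor did, from Srp14 at 40.1 ± 0.898 to Srprb at 5.79 ± 0.0354 TPM.

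All 9 box C/D proteins were detected, among them Snu13 at 16.2 ± 3.51, Nop56 at 11.3 ± 3.91 and the methyltransferase Fbl at 10.6 ± 0.156 TPM. All 6 box H/ACA proteins were, with Nop10 at 18.4 ± 0.297 and the pseudouridine synthase Dkc1 at 7.20 ± 1.36 TPM. The 13 Sm and snRNP proteins were led by Snrpb at 37.2 ± 0.120, Snrpn at 32.7 ± 1.80 and the U1 protein Snrnp70 at 30.9 ± 1.18 TPM. The SMN complex had 11 of 12 detected, ribonucleases P and MRP 9 of 11, RNA polymerase III with its snRNA factor SNAPc 19 of 19, and the exosome with Integrator 16 of 17. Of the Y RNA and vault partners 5 of 5 found in the annotation were detected, although the Y RNA Rny1 had 6 and 1 counts and Rny3 had 0. Of the Cajal body list 2 of 4 found were detected, Wrap53 and Coil, with Tert at 0.055 ± 0.0495 TPM. Of listed snoRNA host genes 29 of 33 found were detected, and Hspa8 was highest at 375 ± 1.70 TPM.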

How the data were processed

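Total RNA of 2 heart libraries was quantified by the authors in 2 ways. Alignment was to mm10 with GENCODE M21, per the deposited readme; the aligner and its version are not given in these sources. Per the file headers, the first quantification (RSEM layout) gives expected counts, in which the authors' estimator splits shared reads, TPM, FPKM (used as an alternative), and posterior means and SDs of the count, and credibility intervals of TPM; the SDs and interval bounds are treated as deposited scores. The percent of a gene held by each transcript, also deposited, was not needed. The second (kallisto layout) gives the authors' estimated counts and TPM per transcript. Depth is set by 39819960 and 37060119 expected counts; a count of 0 allows 3, and intervals cover counting error only.

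Classes came from the biotype in transcript names. Ratios were scaled by annotated library totals, with exact (Clopper-Pearson) 95% intervals of rounded counts. A gene passed 2-fold beyond a log2 of 1 either way. Copies were entries of at least 95% identity (edlib 1.3.9.post1), linked in chains. Hosts, coordinates and sequences are those of GENCODE M21 (mm10), and all 3503 genes matched a transcript sequence. Some sequences are not reported here. No test was possible with 1 group. TMM factors (edgeR 4.0.16) and size factors (DESeq2 1.42.0), computed from rounded expected counts, served as alternatives, beside other minimums, denominators, pseudocounts and either library alone. Steps were tested on simulated data. Python 3.11.15, pandas 2.3.3, scipy 1.17.1 and R 4.3.3 were used.

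The members and lists were chosen with earlier results of these data known. Named genes were the markers, the first 10 of each class by TPM or counts, all members past 2-fold, 5 genes on either side of the minimum and the first genes of each partner list. Gm26397, Gm26035, Gm23547, Gm24119, Snord15a, Gm25835 and the copies were named after their values were seen.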

Additional observations from a re-analysis of the deposited data

How the results depend on the processing

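The median log2 ratio between libraries lay between -0.06 (spike-in total) and 0.08 (second quantification) under all 9 alternatives, within the spread of genes, and its sign was negative with the spike-in total and at a minimum of 100 counts. Members past 2-fold between libraries numbered 5 under TMM, DESeq2 and spike-in scaling, but 0 of 36 at a minimum of 100, 0 of 12 in the second quantification, 113 of 248 with no minimum, and 1 of 54 with copies summed, an alternative chosen after seeing the data. Between quantifications, 44 of 54 groups passed by TPM with copies summed, and at a minimum of 100 counts 26 of 36 members by TPM and 31 of 36 by counts. A minimum of 100 counts left 36 members (10 snoRNA, 5 scaRNA, 3 misc_RNA), a minimum of 5 gave 16 misc_RNA, and the second quantification left 12 (2 snoRNA, 0 snRNA, 5 scaRNA, 5 misc_RNA). In the second quantification the TPM shares were 0.0339% for snoRNA, 9.89e-05% for snRNA, 0.0458% for scaRNA and 15.2% for misc_RNA, and the count shares 0.00320%, 4.73e-06%, 0.00656% and 1.46%, with 1.47% for all members. Outside the mitochondrial chromosome the TPM shares were 0.507%, 0.709%, 0.111% and 24.1% in the same order of classes, 25.4% for all, and the count shares 0.0290%, 0.0404%, 0.0192% and 3.76%, 3.85% for all, since the denominator is smaller. With all genes of a class, snoRNA held 0.311% of TPM and 0.0188% of counts, and scaRNA 0.0648% and 0.0119%. Members numbered 87 without library 1 and 93 without library 2. In the second quantification 76 of 79 members' TPM moved by more than the SD of 2 libraries. Identity of 90% gave 52 groups of copies against 54. Partner list entries detected numbered 136 of 146 in the second quantification, against 135 in the first. Nop56, Nhp2 and Dkc1 stand on a protein list and on the host gene list and count on both. The entries also include noncoding genes such as Terc and Snhg1. No paired analysis was possible because there is 1 group. Depth limits members near 10 counts, where the interval of the ratio spans more than 2-fold, and entries of at most 100 bases cannot be counted at any depth.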
